A study of Mus musculus with 10 samples.

Results

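Expression of 8 genes of the Lin28 and let-7 system was compared between CBE-KO and WT mouse embryonic stem cells. The genes were the Lin28 genes Lin28a and Lin28b, the ubiquitin ligase and RNA-binding gene Trim71, the chromatin genes Hmga1 and Hmga2, and Igf2bp1, Igf2bp2 and Igf2bp3, which encode oncofetal RNA-binding proteins. They were taken by gene symbol, matched 8 of 52636 gene identifiers in the count tables, and all 8 were among the 16005 genes abundant enough to test. The cells were of the E14 line, grown with LIF, a MEK inhibitor and a GSK inhibitor. They were then moved to medium without LIF and both inhibitors, with retinoic acid (RA) at a labelled dose of 2 µM, and collected for RNA sequencing after 24 h. WT cells are labelled as the line without that change to its genome. From CBE-KO cells, a site bound by the chromatin protein CTCF, studied for its link to the HoxA genes, had been removed. Each group had 2 libraries, RA was given to both groups, and the labels do not say how many clones the CBE-KO cells came from.

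Lin28 proteins are RNA-binding proteins with a cold shock domain and zinc knuckles. They bind the precursor of the let-7 microRNA. Lin28a recruits enzymes that add uridines to the end of the precursor, after which the precursor is degraded. Mature let-7, in turn, pairs with the mRNAs of Lin28a, Lin28b, Trim71, Hmga1, Hmga2 and the Igf2bp genes and lowers their output, so that Lin28 and let-7 repress each other. In embryonic stem cells Lin28 is abundant and mature let-7 is scarce, and the balance turns over as cells differentiate.

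The microRNAs on which this system turns share 1 seed, the bases that pair with target mRNAs. The RefSeq (GRCm38.p6) set used here held 11 mature mouse microRNA names with the seed GAGGUAG at bases 2 to 8, made from 13 genes. Mirlet7a-2, a let-7 gene with an identifier among those counted, was not in that set. The sequences are shown because the seed, in capitals, is what defines the common target set of the genes described here.
mmu-let-7a-5p: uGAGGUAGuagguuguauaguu
mmu-let-7b-5p: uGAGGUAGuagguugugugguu
mmu-let-7c-5p: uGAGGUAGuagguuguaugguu
mmu-let-7d-5p: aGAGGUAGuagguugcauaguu
mmu-let-7e-5p: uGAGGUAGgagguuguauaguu
mmu-let-7f-5p: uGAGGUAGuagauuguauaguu
mmu-let-7g-5p: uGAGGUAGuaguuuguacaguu
mmu-let-7i-5p: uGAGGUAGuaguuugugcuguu
mmu-let-7k: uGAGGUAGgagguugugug
mmu-miR-1961: uGAGGUAGuaguuagaa
mmu-miR-98-5p: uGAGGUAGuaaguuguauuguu

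Lin28 recognises the precursor, not the mature strand, and a GGAG run near the end of the precursor's loop is part of the known binding site. It was searched for between the mature arms of the 11 hairpins of this family, Mirlet7a-2 not included, that had both arms placed. Of these, 8 held GGAG and 3 did not (Mirlet7b, Mirlet7c-2 and Mir98). Among all 644 mouse hairpins of the RefSeq set used with both arms placed, 52 (8.07%) held it. Each kind is shown by a pair of hairpins, with GGAG in capitals.
Mirlet7g: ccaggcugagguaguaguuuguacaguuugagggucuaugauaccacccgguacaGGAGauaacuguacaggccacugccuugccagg
Mirlet7f-1: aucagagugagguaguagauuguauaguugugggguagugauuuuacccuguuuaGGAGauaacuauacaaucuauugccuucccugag
Mirlet7b: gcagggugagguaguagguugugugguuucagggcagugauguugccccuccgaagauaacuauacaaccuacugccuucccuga
Mirlet7c-2: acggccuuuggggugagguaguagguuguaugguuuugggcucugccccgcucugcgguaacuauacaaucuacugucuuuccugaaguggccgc
Mirlet7g and Mirlet7f-1 hold the run, and Mirlet7b and Mirlet7c-2 do not. A match is a description of the letters and was not tested as a binding site in these cells.

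The libraries held 14108038 to 15632960 counts, so that 3 counts, taken as the floor of measurement, corresponded to 0.192 to 0.213 CPM (counts scaled to a common library size). This range is by library totals alone, without the further scaling applied to the gene levels below. Markers of the labelled cell type were present: all 12 pluripotent cell markers were abundant enough to test, and Pou5f1 stood at 1028 CPM in WT and 816 in CBE-KO. The Y-linked genes set the groups apart. E14 is a male line, yet Ddx3y had 6 and 5 counts in the WT libraries against 920 and 822 in the others, and Uty had 2 and 0 against 293 and 267. The libraries labelled WT thus go against a male line with its Y chromosome expressed, and whether those cells lacked it or were of another subline was not tested. The groups thus differed in Y-linked expression besides the removed element, and the parts of each in any difference below cannot be told apart. Of 16005 tested genes, 6895 (43.1%) were called, meaning that the quasi-likelihood test of edgeR gave an adjusted p below 0.05, with 21.6% higher and 21.5% lower in CBE-KO. The labels call the samples biological replicates without naming separate cultures, so p-values measure the spread between these libraries.

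Of the 8 genes, 6 passed that threshold against a background of 43.1%. Lin28a, Hmga2, Igf2bp2, Hmga1 and Igf2bp1 were lower in CBE-KO, and Igf2bp3 was higher. Lin28b and Trim71 did not pass. The median log2 fold change of the 8 was -0.21, beside 0.01 for all tested genes. The CBE-KO and WT libraries did not overlap for any of the 8, which was also true of 70.4% of all tested genes. Lin28a alone was called with a log2 fold change of -1 or lower, as were 2.55% of all tested genes, and no member was called at 1 or higher, as were 6.09%.

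**Figure D1:**
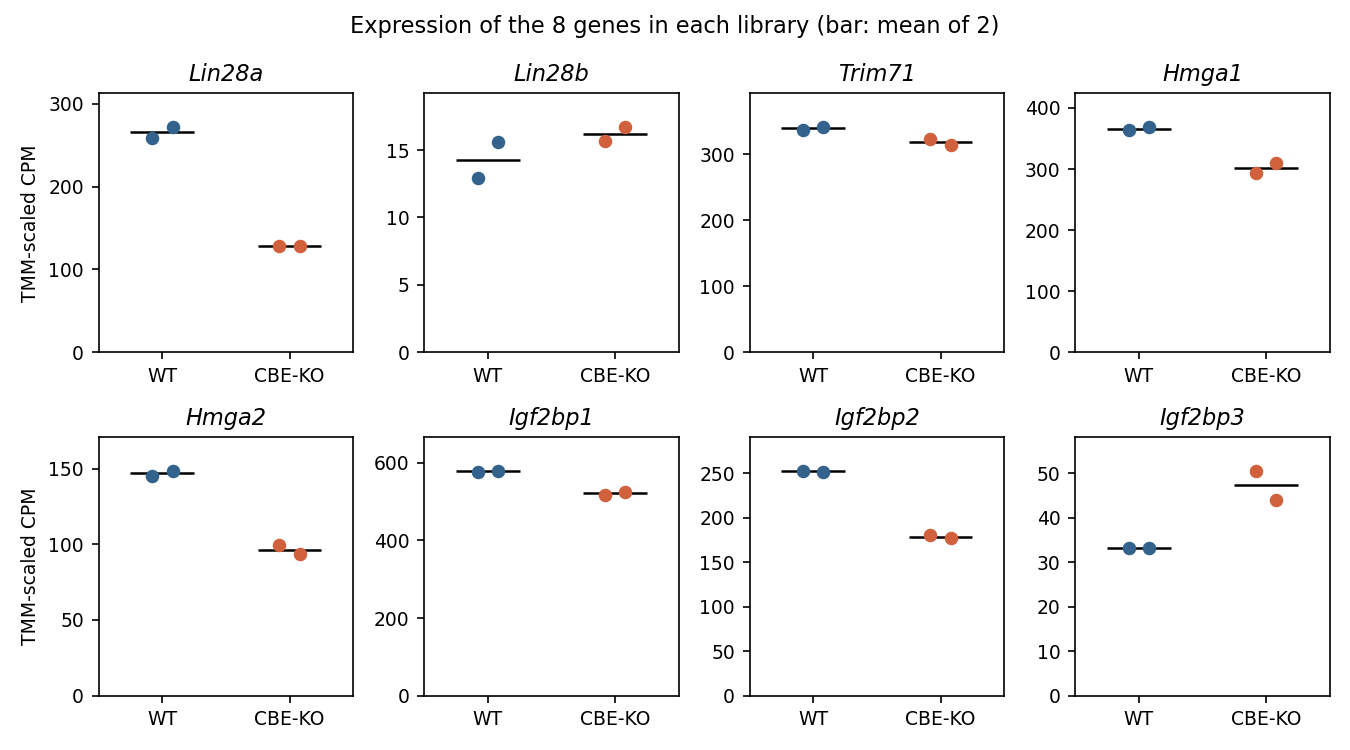
Expression of each gene in the 4 libraries, in TMM-scaled CPM on axes that start at 0, with 1 point per library and a bar at the mean of 2. Lin28a falls from 259 and 272 CPM in WT to 128 and 128 in CBE-KO, while Igf2bp3 is the gene whose CBE-KO points lie clearly above WT.

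Lin28a, the Lin28 gene best known from embryonic stem cells, showed the largest change of the 8. Its level was 259 and 272 CPM in the WT libraries and 128 and 128 CPM in the CBE-KO libraries, from 1858 to 3784 counts. Both CBE-KO libraries lay far below both WT libraries, and the distance was far above the spread within a group (265 ± 8.99 against 128 ± 0.375 CPM, SD, n = 2 each). The log2 fold change was -1.05 ± 0.05 (SE), at an adjusted p of 3.54e-11 by edgeR, a level 2.07-fold higher in WT. Of all tested genes, 8.94% had a change of at least this size in either direction. Lin28a (ENSMUSG00000050966) lies on chromosome 4, from 134003330 to 134019196 in GRCm38, the assembly of the mm10 build that the submitters' processing notes name.

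Lin28b, its paralogue on chromosome 10 (45376617 to 45486314), was not lower. Its counts were 189 and 215 in the WT libraries, 254 and 243 in the CBE-KO libraries, or 12.9 and 15.6 CPM against 15.7 and 16.7 CPM. The higher WT library and the lower CBE-KO library nearly met. Its log2 fold change of 0.18 ± 0.13 (SE), at an adjusted p of 0.283 by edgeR had a 95% interval from -0.09 to 0.45, which still holds rises of up to that size but no fall like that of Lin28a. The log2 ratio of Lin28a to Lin28b counts within a library, which does not depend on how libraries are scaled, was 4.32 and 4.12 in WT and 3.03 and 2.94 in CBE-KO. The ratio fell by 1.24 on the log2 scale, with no overlap between groups (exact permutation test, two-sided, p = 0.333, the smallest that 2 against 2 allows). The size of such a ratio depends on transcript length and is no comparison of levels between the genes.

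Trim71, the mouse counterpart of worm lin-41 and a let-7 target that binds mRNAs and lowers their output, was nearly level between the groups. It had 338 and 341 CPM in WT and 324 and 315 CPM in CBE-KO. The CBE-KO libraries were the lower ones, by a small step that still exceeded the spread within either group (340 ± 2.58 against 319 ± 6.40 CPM, SD, n = 2 each). The log2 fold change was -0.09 ± 0.05 (SE), at an adjusted p of 0.130 by edgeR, with a 95% interval from -0.19 to 0.01, and its sign turned to 0.01 with library totals alone (adjusted p = 0.832). Within libraries, the log2 ratio of Lin28a to Trim71 counts went from -0.38 and -0.33 in WT to -1.33 and -1.30 in CBE-KO. That ratio did not overlap between the groups.

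The Hmga genes encode small proteins that bind AT-rich DNA through AT hooks and are high in embryonic cells. Hmga2, on chromosome 10 (120361268 to 120476469) and the textbook let-7 target, had 145 and 149 CPM in WT and 99.6 and 93.3 CPM in CBE-KO. Both CBE-KO libraries were lower by far more than the spread within a group (147 ± 2.58 against 96.5 ± 4.41 CPM, SD, n = 2 each). The log2 fold change was -0.61 ± 0.05 (SE), at an adjusted p of 7.18e-08 by edgeR.

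Hmga1, on chromosome 17 (27556574 to 27563672), fell less. It had 364 and 368 CPM in WT and 294 and 310 CPM in CBE-KO, which gave a log2 change of -0.28 ± 0.05 (SE), at an adjusted p of 0.000141 by edgeR. The mouse genome holds Hmga1b, a near-identical copy, and how reads shared by both were assigned is not given in the sources used here. Hmga1b had 258 and 309 CPM in WT and 230 and 248 CPM in CBE-KO, which gave a log2 change of -0.25 ± 0.07 (SE), at an adjusted p of 0.00572 by edgeR. With the counts of both genes added together, a setting chosen after the data were seen, the log2 fold change was -0.27 (adjusted p = 0.000441). The log2 ratio of Hmga2 to Hmga1 counts within libraries was -1.33 and -1.31 in WT and -1.56 and -1.73 in CBE-KO.

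Since both Hmga genes fell, the 250 bases before their RefSeq start sites were set side by side (GRCm38.p6). That of Hmga1 lies on the plus strand at chr17:27556324-27556573, and that of Hmga2 on the minus strand at chr10:120476470-120476719. Both are written in the direction of transcription. Capitals mark letters of any of 4 motifs searched on both strands: AGGTCA, the core element of retinoid receptors; CACGTG, the E-box bound by Myc; ATGCAAAT, the octamer bound by Pou5f1 and its relatives; and CATTGT, the core bound by Sox proteins.
Hmga1: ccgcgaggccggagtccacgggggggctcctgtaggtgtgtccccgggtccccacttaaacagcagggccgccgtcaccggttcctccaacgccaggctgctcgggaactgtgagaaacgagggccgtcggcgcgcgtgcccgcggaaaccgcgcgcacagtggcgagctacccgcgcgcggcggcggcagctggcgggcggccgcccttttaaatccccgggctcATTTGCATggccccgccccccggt
Hmga2: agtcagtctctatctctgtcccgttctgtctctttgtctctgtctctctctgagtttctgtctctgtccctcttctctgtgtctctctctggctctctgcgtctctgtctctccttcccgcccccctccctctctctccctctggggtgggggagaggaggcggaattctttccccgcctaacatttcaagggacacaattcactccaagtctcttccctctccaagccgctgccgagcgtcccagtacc
The Hmga1 window holds the octamer, read as ATTTGCAT, 24 bases before the start, a motif found in 1.60% of all 32851 RefSeq mouse promoter windows of this length. A second Hmga1 window, at chr17:27556354-27556603 for another RefSeq start, holds the same octamer 54 bases before that start. The Hmga2 window holds none of the 4. The windows shown also differ in base composition, at 72.8% G and C for Hmga1 and 56.4% for Hmga2, beside a median of 52.4% over all windows.

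In all, 7 of the 8 members had a promoter entry, and single motifs were found in the windows of 3 more members. Each of these 3 windows precedes a RefSeq transcript start that lies inside the annotated span of its gene, not at the outer end of the gene. The Lin28a window is chr4:134018817-134019066, that of Lin28b chr10:45470202-45470451 and that of Igf2bp3 chr6:49214955-49215204, all on the minus strand. The sites are shown with 10 bases on each side, the motif in capitals, and distances are to that inner start.
Lin28a, 96 bases before the inner start: ggggttgggtCATTGTcttttagaat
Lin28b, 49 bases before the inner start: ttgacagagtCACGTGtgctcagggg
Igf2bp3, 23 bases before the inner start: tgggattcctCACGTGagacgttgat
The Sox core is in the Lin28a window and in 10.7% of all windows, and the E-box in those of Lin28b and Igf2bp3 and in 6.02%. AGGTCA was found in none of the 7 members' windows and in 4607 of all 32851 windows. These are letters within 250 bases, and binding was not measured here.

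The Igf2bp genes encode RNA-binding proteins with RNA recognition motifs and KH domains that hold target mRNAs in stable complexes. All 3 passed the test, and not in the same direction. Igf2bp1, on chromosome 11 (95957163 to 96005944), had 576 and 580 CPM in WT and 518 and 525 CPM in CBE-KO. The groups stood apart by more than their spread (578 ± 2.39 against 522 ± 4.81 CPM, SD, n = 2 each), but the log2 fold change was only -0.15 ± 0.05 (SE), at an adjusted p of 0.0123 by edgeR. This small fall was not called with library totals alone (-0.04, adjusted p = 0.458), without CBE-KO replicate 1 (-0.14, adjusted p = 0.124) or without CBE-KO replicate 2 (-0.16, adjusted p = 0.0713).

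Igf2bp2, on chromosome 16 (22059009 to 22163299), fell further. It had 253 and 252 CPM in WT and 181 and 177 CPM in CBE-KO, which gave a log2 change of -0.50 ± 0.05 (SE), at an adjusted p of 2.24e-07 by edgeR. Replicates of both groups lay close together, with SDs of 0.939 and 2.59 CPM.

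Igf2bp3 was the member that rose. Its counts were 485 and 455 in the WT libraries, 820 and 640 in the CBE-KO libraries, or 33.2 and 33.1 CPM against 50.5 and 44.0 CPM. The CBE-KO libraries were both higher, though they differed more from each other than the WT libraries did. The log2 fold change was 0.51 ± 0.08 (SE), at an adjusted p of 7.20e-05 by edgeR, with a 95% interval from 0.34 to 0.69. Within libraries the log2 ratio of Igf2bp3 to Igf2bp2 counts rose from -2.93 and -2.93 in WT to -1.84 and -2.01 in CBE-KO, and that of Igf2bp3 to Igf2bp1 from -4.12 and -4.13 to -3.36 and -3.58. In all, 6 such ratios between members were computed. None overlapped between groups, and each had an exact permutation p of 0.333 (two-sided, 0.333 after Benjamini-Hochberg adjustment), the smallest possible. Any ratio without overlap gives this p with 2 against 2. Of single tested genes, 70.4% did not overlap either, and the share over all pairs of genes was not computed.

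**Figure D2:**
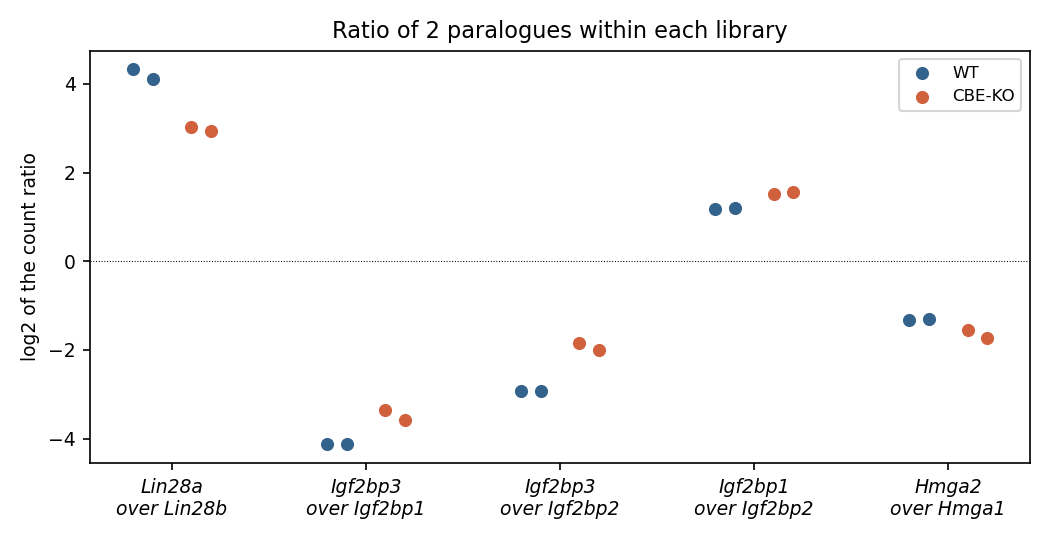
Log2 ratio of the counts of 2 related genes within each library, which is free of library scaling; the y axis is the log2 ratio, with WT points on the left and CBE-KO points on the right of each pair. The Lin28a to Lin28b ratio falls from 4.32 and 4.12 to 3.03 and 2.94, and both ratios with Igf2bp3 on top rise.

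**Figure D3:**
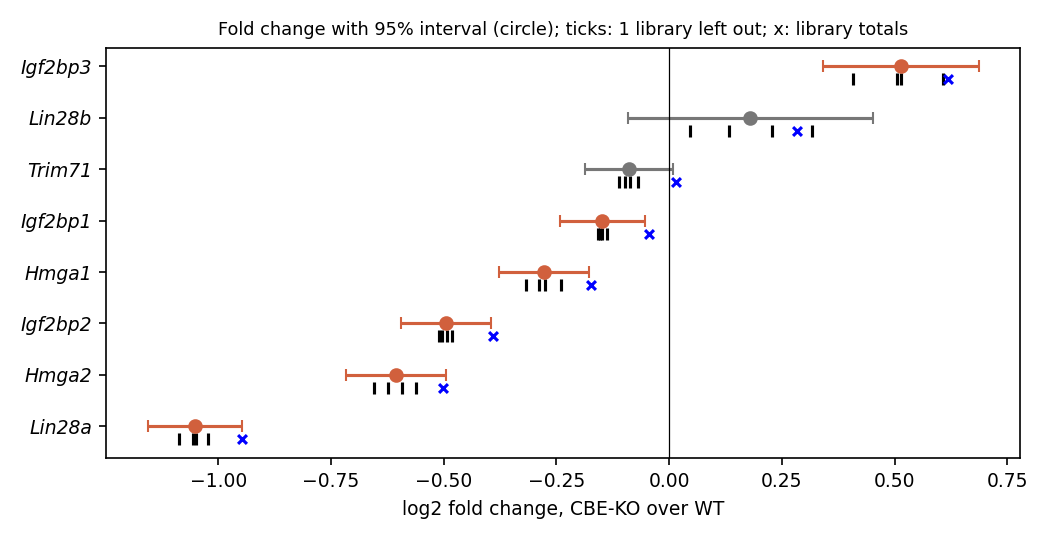
Log2 fold change of CBE-KO over WT for each gene with its 95% interval (circle and bar, orange where the adjusted p is under 0.05), the values with 1 library left out (black ticks) and the value with library totals alone (blue cross). Lin28a, Hmga2, Igf2bp2 and Hmga1 stay below 0 and Igf2bp3 above 0 under these settings, while Trim71 crosses 0 with library totals.

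Igf2bp3 shares chromosome 6 with the HoxA cluster, the locus of the study's question. The gene spans 49085218 to 49215469, and 2940 kb separate its end from the first Hoxa gene at 52155367. In that interval 19 genes were tested, of which 5 were higher and 3 lower in CBE-KO, 42.1% against the background of 43.1%. Tra2a, 28 kb from Igf2bp3, was lower at -0.31 (edgeR adjusted p = 6.65e-05), and Stk31, 180 kb away, was higher at 0.26 (edgeR adjusted p = 0.0424). The called genes nearest to Igf2bp3 on that side did not share 1 direction.

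**Figure D4:**
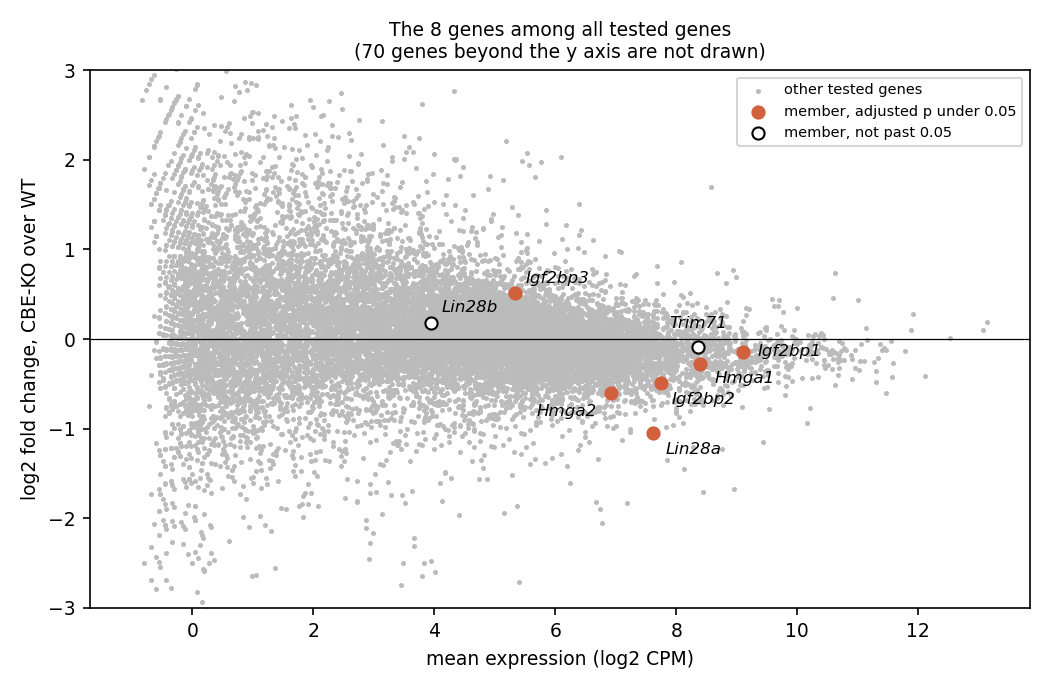
Log2 fold change of CBE-KO over WT against mean log2 CPM for the 16005 tested genes (grey) with the 8 genes marked; 70 genes beyond a log2 fold change of 3 in either direction are not drawn. Lin28a lies below the dense band at -1.05, and Trim71, Igf2bp1 and Hmga1 lie within it.

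Genes whose 4 values ran closest to those of 3 members were found by the Euclidean distance of centred log2 CPM over the 4 libraries. For Lin28a these were Reep6 (distance 0.0503), Nr0b1 (0.0581) and Mzf1 (0.0680), with log2 fold changes of -1.05, -1.04 and -1.02. Nr0b1 encodes Dax1, a nuclear receptor of pluripotent cells. For Trim71 they were Mkks, Pum2 and Copg1, at distances from 0.00808 to 0.00926, and for Lin28b they were Fchsd1, Crocc and Klc1, at 0.0128 to 0.0284. With 4 libraries in 2 groups, genes of a like fold change lie close by this measure, whatever their function.

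Lin28a is itself high in pluripotent cells, so the markers of cell types were read beside it, against the 21.6% of all tested genes that were higher and the 21.5% that were lower. Of 12 pluripotent cell markers, all tested, 8 were lower and 2 higher in CBE-KO, with a median log2 fold change of -0.34, and their summed level was 5551 and 5398 CPM in WT and 4241 and 4318 in CBE-KO. Utf1 (-1.67) and Tdgf1 (-1.20) fell more than Lin28a, Pou5f1 (-0.33) and Sox2 (-0.35) less, and Nanog was higher by 0.15. Of 9 primitive endoderm markers, 5 were higher and none was lower, with sums of 156 and 168 CPM in WT and 200 and 202 in CBE-KO. Of 5 tested neural progenitor markers, 4 were higher, with sums from 35.5 to 36.3 in WT and from 63.4 to 64.1 in CBE-KO. Sox3 held a large part of that rise, with means of 12.0 CPM in WT and 32.6 in CBE-KO. Zfp521, with 4 and 4 counts in WT, and Pax6, with 10 and 9, were near the floor there. The tested marker not called, Nes, was at -0.31 (edgeR adjusted p = 0.0687). Trophoblast markers had 2 higher and 1 lower of 7 tested, with sums of 102 to 114 and 113 to 115. Of 7 fibroblast markers only 2 were tested, of which 1 was higher and none lower. That was Col1a1, at 0.88 (edgeR adjusted p = 0.0029), while Thy1 was at 0.04 and not called. Among those too low to test, Col1a2 went from 0 and 1 counts in WT to 12 and 8 in CBE-KO. Col3a1 went from 0 and 0 to 8 and 1. Dcn, Postn and Lum had 0 counts in every library, and the fibroblast sums were 11.4 to 12.9 CPM in WT and 14.8 to 17.6 in CBE-KO. The part of these shifts in the change of Lin28a and the other members was not tested, and in bulk RNA fewer cells of a type and less RNA per cell cannot be told apart.

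The enzymes around let-7 were then described from a list of 23 symbols, some of them older names set beside current ones. Of these, 20 were in the tables and 19 were tested. Of the 19, 6 rose and 4 fell beside 21.6% and 21.5% of all genes. Their median log2 fold change was 0.12. Drosha, the nuclear nuclease that releases microRNA hairpins, fell most. Its counts were 2440 and 2269 in the WT libraries, 1390 and 1177 in the CBE-KO libraries, or 166 against 83.3 CPM on average, a log2 change of -0.99 ± 0.05 (SE), at an adjusted p of 1.21e-10 by edgeR. Both CBE-KO libraries were far below WT. Xpo5, which exports the precursors, fell by 0.43 on the log2 scale. Trim25, a cofactor of Lin28a-guided uridylation, fell by 0.40. Tarbp2, a partner of Dicer, fell by 0.24, a call lost with library totals alone (adjusted p = 0.0511).

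Dicer1, which cuts the precursor, was at 117 CPM in WT and 114 in CBE-KO (-0.04, edgeR adjusted p = 0.569). Tut4, a terminal uridylyltransferase that Lin28a recruits, rose by 0.30 ± 0.06 (SE), at an adjusted p of 0.000507 by edgeR. Its relative Tut7 was at 0.19 (edgeR adjusted p = 0.103) and passed only with library totals. Dis3l2, the nuclease that degrades uridylated pre-let-7, was higher by 0.32 (edgeR adjusted p = 0.0238), a call that was lost in DESeq2 (adjusted p = 0.148) and without either WT library or CBE-KO replicate 2.

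Prkra, another Dicer partner, rose from 139 and 145 counts to 287 and 227 (0.73 ± 0.14, SE, at an adjusted p of 0.000286 by edgeR). Among the Argonaute genes, whose proteins carry mature microRNAs, Ago4 rose from 18 and 11 counts to 42 and 38 (1.34 ± 0.34, SE, at an adjusted p of 0.00438 by edgeR). Ago1 was higher by 0.27 (edgeR adjusted p = 0.0175), a call lost in DESeq2 (adjusted p = 0.0824) without WT replicate 1 (0.10, adjusted p = 0.294) and without CBE-KO replicate 1 (adjusted p = 0.0565). Tnrc6b, a partner of Argonaute in silencing, was higher by 0.17 (edgeR adjusted p = 0.0277), a call lost in DESeq2 (adjusted p = 0.199), without the expression filter and with 3 of the 4 libraries left out in turn. Ago2, the Argonaute that can cut its target, was at -0.12 (edgeR adjusted p = 0.0790) and was called only without WT replicate 1 (-0.19, adjusted p = 0.00411). Dgcr8, the partner of Drosha, is listed at 0 counts in all 4 libraries. How reads in overlapping annotations were counted is not given in the sources used here, so this 0 is not read as absence of its mRNA. In DESeq2 3 genes of this list were higher, and with library totals alone 11 were.

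The let-7 microRNAs themselves could not be read from these tables. The tables held 12 let-7 and miR-98 genes, and no library had more than 1 count for any of them. Of 18 listed symbols of let-7 genes and host transcripts, 15 were found and 2 were tested, Wdr82 and Huwe1. Mir99ahg, another listed host transcript, had 0 counts in all 4 libraries. Of the transcripts known to carry such hairpins, Wdr82 (let-7g) was at -0.13 (edgeR adjusted p = 0.0396), a call lost in DESeq2 (adjusted p = 0.0896), with the replicate block (adjusted p = 0.0692), under 3 further settings and without 3 of the 4 libraries in turn, and Huwe1 (let-7f-2 and miR-98) at 0.08 (edgeR adjusted p = 0.218), called only with library totals or without WT replicate 2 (0.16, adjusted p = 0.00899). The level of mature let-7 was therefore not measured in either group.

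Further known or predicted let-7 targets were split. Of 25 genes, 24 were tested, and 10 fell while 8 rose, beside 21.5% and 21.6% of all tested genes, with a median log2 fold change of 0.06. Myc, the growth transcription factor, fell from 1026 and 962 counts to 407 and 409 (-1.40 ± 0.08, SE, at an adjusted p of 2.17e-10 by edgeR). Mycn, its relative, fell from 374 and 431 to 249 and 199 (-0.97 ± 0.12, SE). The groups were wide apart for both. The cell cycle genes went both ways: Ccnd1, cyclin D1, fell by 0.80 on the log2 scale and Cdc25a, a phosphatase that activates CDKs, by 0.39. Ccnd2, cyclin D2, rose from 201 and 159 counts to 957 and 846 (2.21 ± 0.09, SE, at an adjusted p of 6.45e-12 by edgeR).

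Fign, a microtubule-severing enzyme, was at the floor in WT, with 3 and 3 counts, against 39 and 33 in CBE-KO. The ratio of its summed counts, scaled for library size, was 11.1 (95% counting interval 4.84 to 31.1, exact, counting error only). The receptor gene Insr rose by 0.89 and Tgfbr1 by 0.29, the latter not called in DESeq2 (adjusted p = 0.152) or without WT replicate 1 or CBE-KO replicate 1, while Igf1r was at 0.13 (edgeR adjusted p = 0.196) and called only with library totals. Igdcc3, a receptor-like surface protein, fell by 0.81. Arid3b, a DNA-binding protein, rose by 0.38 and E2f5, a cell cycle transcription factor, by 0.37. The GTPase genes Nras and Hras were lower by small steps, at -0.20 and -0.16. Both lost their calls with library totals and without CBE-KO replicate 2. Hras was also not called in DESeq2 (adjusted p = 0.152), under upper-quartile scaling (adjusted p = 0.101), without WT replicate 1 (adjusted p = 0.183) or without CBE-KO replicate 1 (adjusted p = 0.186). With library totals 6 targets in place of 10 were called lower, and DESeq2 called 5 higher.

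Genes on which the members' proteins are known to act were listed as well. Of 6 mRNAs bound by Trim71, 3 rose, 1 fell and 2 did not pass, beside 21.6% higher and 21.5% lower among all tested genes, with a median log2 fold change of 0.21. Mbnl1, a splicing regulator, rose from 54 and 67 counts to 164 and 146 (1.24 ± 0.19, SE, at an adjusted p of 4.09e-05 by edgeR). Rbl1, a pocket protein that restrains the cell cycle, rose by 0.59 and Cdkn1a, the CDK inhibitor p21, by 0.48. Trim71 itself was near level in the same libraries. Plxnb2, the gene that fell (-0.19, edgeR adjusted p = 0.0317), did not pass in DESeq2 (adjusted p = 0.139), under upper-quartile scaling or library totals, or without 3 of the 4 libraries in turn.

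Of 6 RNAs bound by Igf2bp proteins, 4 fell, none rose and 2 did not pass, with a median of -0.28. Of all tested genes, 21.5% were lower and 21.6% higher. Igf2, the growth factor that gave the family its name, fell from 238 and 180 counts to 12 and 17 (-3.95 ± 0.24, SE, at an adjusted p of 9.47e-10 by edgeR). H19, its neighbour, fell from 1088 and 907 counts to 926 and 874 (-0.26 ± 0.07, SE, at an adjusted p of 0.00516 by edgeR), a call lost without WT replicate 1 (adjusted p = 0.0601) and with library totals (adjusted p = 0.0642). Actb, the mRNA by which Igf2bp1 was first known, fell by 0.29. Myc, on this list too, fell as given above. Cd44 was near the floor, at 10 and 7 counts against 22 and 15 (edgeR adjusted p = 0.0926).

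**Figure D5:**
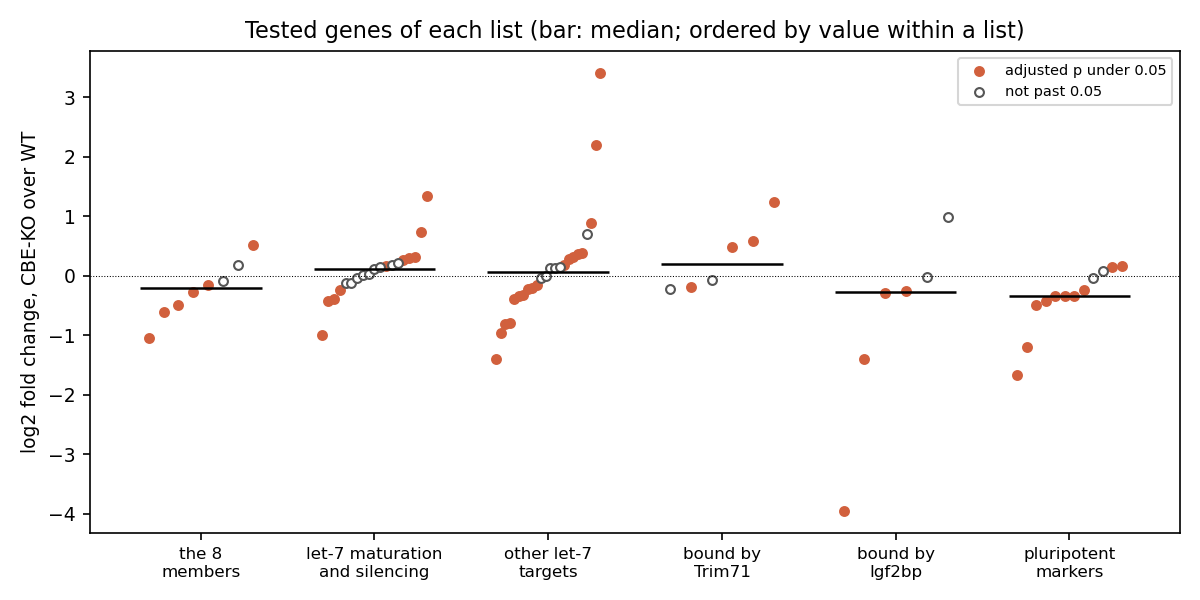
Log2 fold change of CBE-KO over WT for the tested genes of 6 lists, orange where the adjusted p is under 0.05, with a bar at each list's median. The members and the RNAs bound by Igf2bp proteins have medians of -0.21 and -0.28, the let-7 maturation genes and other let-7 targets 0.12 and 0.06; the top point among the other targets is Fign, whose WT counts were at the floor.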

How the data were processed

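Gene-level RNA-seq counts of 2 WT and 2 CBE-KO libraries were used, and 6 further samples, from Capture-C, were not used here. The authors deposited whole-number read counts per Ensembl gene identifier, 1 table per library and not normalized. The submitters' processing notes name the build mm10 and HISAT2 2.1.0, HTSeq 0.9.1, DESeq2 1.18.1 and Bowtie2 2.3.1, without their roles. Use of strand, treatment of shared reads and annotation release are not given in the sources used here, so overlapping genes and near-identical copies are uncertain. Symbols were found for 52403 of 52636 identifiers.

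Genes passing edgeR's filterByExpr (16005) were scaled by TMM (trimmed mean of M-values), which sets the CPM given, and tested by the quasi-likelihood functions glmQLFit and glmQLFTest of edgeR 4.0.16 in R 4.3.3, two-sided, with Benjamini-Hochberg adjustment over all tested genes and a threshold of 0.05. The standard error is the log2 fold change divided by the root of the F statistic. The alternatives were DESeq2 1.42.0, other scalings, filters, thresholds and moderation, a replicate block, and each library left out. The 8 genes and all lists were chosen with earlier results of these data known. The rule for naming took all 8 genes, the tested genes of the lists, the Y-linked genes as a check, and the 3 genes nearest in pattern to each of 3 members. On simulated counts for 16005 genes, edgeR recovered 153 of 200 genes changed by a log2 fold change of 1 (76.5%), with 9 false calls. The simulation changed far fewer genes than the 43.1% called in the data, so its recovery need not hold there. Coordinates, promoters and microRNAs are those of RefSeq GRCm38.p6. Floors and counting intervals cover counting error only. Some genes of the lists are counted in them but not reported by name here.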

Additional observations from a re-analysis of the deposited data

How the results depend on the processing

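The count of changed genes, 6895, was 4577 in DESeq2, and 1383 if calls also had to reach 1 on the log2 scale in either direction. It lay between 5492 and 6420 with 1 library left out, where the lone library of its group is taken to vary like the other group. The 6 members called became 1, Lin28a, under that demand, 5 or 6 with a library left out, 5 with library totals or a threshold of 0.01, and stayed 6 in number elsewhere. Scaling by library totals alone shifted the median over all genes from 0.01 to 0.11 (log2) and the share of calls that were higher from 50.2% to 67.0%, and turned Trim71 to 0.015 (adjusted p = 0.832) and Dicer1 to 0.065 (adjusted p = 0.335). Lin28a ranged from -1.09 to -0.95 over all settings, Hmga2 from -0.65 to -0.50, Igf2bp2 from -0.51 to -0.39, Hmga1 from -0.32 to -0.17 and Igf2bp3 from 0.41 to 0.62, each called throughout apart from that demand on size. Lin28b ranged from 0.05 to 0.32 and was called in none. In the fit with a replicate block, 7027 genes and the same count of 6 members were called, Lin28a at -1.05 and Igf2bp1 at -0.15 (adjusted p = 0.0220). The labels do not say that a number marks a shared batch, and same-numbered libraries deviated from their groups with a correlation of 0.03. Among the other named genes, 26 calls in single alternatives and 29 with a library left out were lost and 5 were gained; the cause was not tested. Genes of few counts, such as Ago4 and Cd44, are limited by depth.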
